A study of Homo sapiens with 43 samples.

Results

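H3K27ac peak lists of 5 lung squamous cell carcinoma lines were compared, Calu-1, HCC2279 and HCC2450 (the Calu-1 group, 3 lines) against SQ-1 and EBC-1 (the SQ-1 group, 2 lines). The lists belong to a series of 43 samples, 27 of which have a peak list, from chromatin immunoprecipitation followed by sequencing (ChIP-seq) of H3K27ac, Sox2, Brn2 and p63. All 5 lines were unmodified established lines grown in RPMI-1640 medium with serum, and no treatment is named. Each gave 1 H3K27ac library with the same antibody, so the line is the unit of replication and no line has a repeat. The groups were chosen by the overlap of these same H3K27ac lists, so differences in H3K27ac between them are given as descriptions, without a test.

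H3K27ac is the acetylation of lysine in the tail of histone H3 and marks active promoters and enhancers. Enhancers differ between cell types far more than promoters do, and long stretches of H3K27ac often lie at genes that define the identity of a cell. Squamous tumours of the lung usually rely on p63 and Sox2, which keep basal and squamous cells in their state, and carcinoma lines range from epithelial ones, held together by E-cadherin, to mesenchymal ones rich in collagens and other matrix proteins.

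The similarity of lists was the Jaccard index, the base pairs covered in both lists divided by those covered in either. Within the Calu-1 group it was 0.427 for Calu-1 with HCC2279, 0.403 for Calu-1 with HCC2450 and 0.386 for HCC2279 with HCC2450. SQ-1 and EBC-1 had an index of 0.395. The 6 pairs across the groups ran from 0.279 (HCC2450 with SQ-1) to 0.372 (HCC2279 with EBC-1). HCC2450 was thus the line of its group farthest from both SQ-1 and EBC-1, and HCC2279 with EBC-1 (0.372) lay close to the lowest pair within the Calu-1 group (0.386). Of the 8 other lines, KNS62 was the nearest to Calu-1 (0.299), HCC2279 (0.347), HCC2450 (0.292) and EBC-1 (0.356), and NCI-H2887 was the nearest to SQ-1 (0.287). LK2 was the farthest from each of the 5 lines (0.152 to 0.193).

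**Figure D1:**
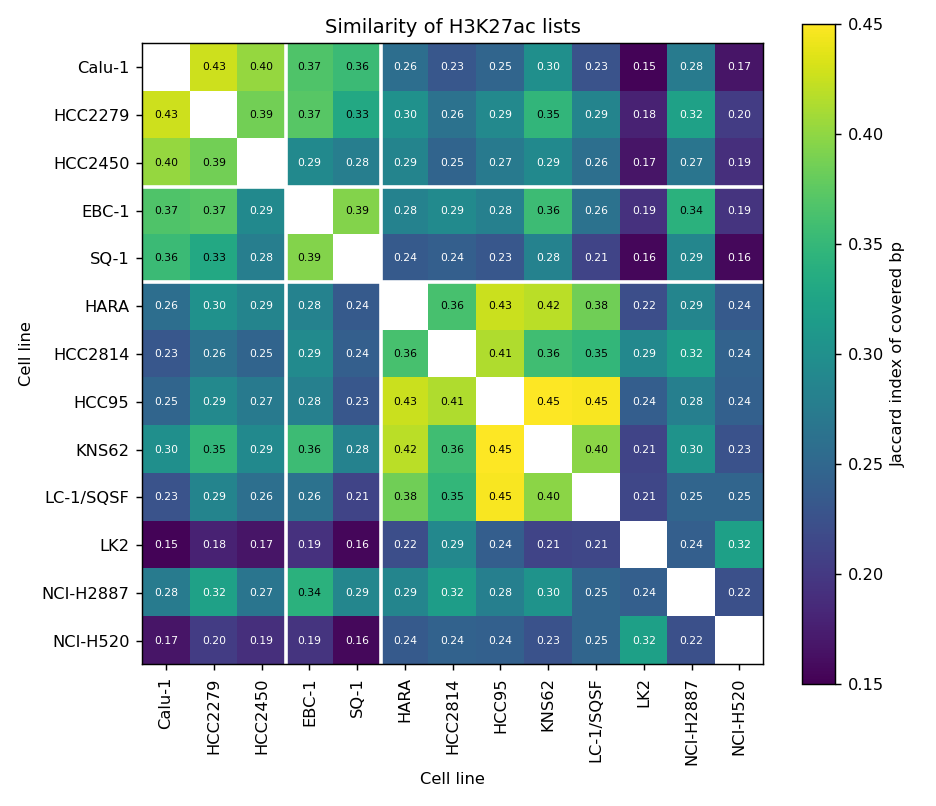
Jaccard index of covered base pairs for each pair of the 13 unmodified lines (colour and printed value; LK2 and NCI-H520 are means over their 2 libraries). White lines separate the Calu-1 group, the SQ-1 group and the 8 other lines. The pairs within the Calu-1 group run from 0.386 to 0.427 and the pairs across the groups from 0.279 to 0.372.

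The lists of the groups differed in size as well as in place. The Calu-1 group lists covered 72.7 Mb ± 1.22 (SD, n = 3 lines) and the SQ-1 group lists 50.7 Mb ± 0.614 (SD, n = 2 lines). The median peak was 1333 bp in Calu-1, 1398 bp in HCC2279 and 1645 bp in HCC2450, against 836 bp in SQ-1 and 958 bp in EBC-1. Peak numbers overlapped, with 40337, 39523 and 36555 peaks in the Calu-1 group and 40325 and 36825 in the SQ-1 group. The SQ-1 group lists therefore held as many peaks, but shorter ones. Sequencing depth is unknown for every list, and the part of peak length in the differences below was not tested beyond the settings named beside them. Calu-1 and EBC-1 carry the same code in their sample descriptions, whose meaning is not given, and they lie in different groups.

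**Figure D2:**
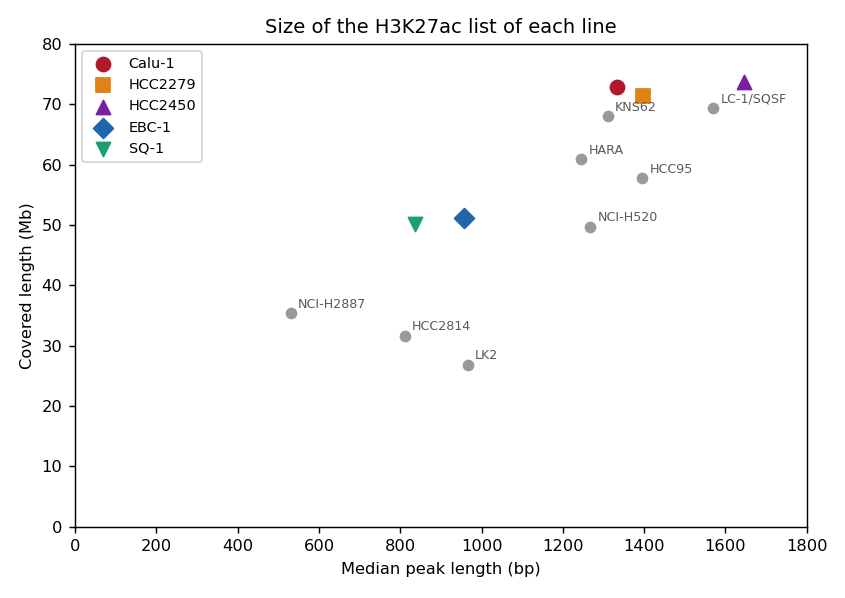
Median peak length in bp (x axis) and covered length in Mb (y axis) of the H3K27ac list of each of the 13 lines; LK2 and NCI-H520 are means of 2 libraries. The 3 Calu-1 group lists lie at 71.3 to 73.7 Mb with median peaks of 1333 to 1645 bp, and the SQ-1 group lists at 50.2 and 51.1 Mb with 836 and 958 bp.

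Loci of the squamous lineage were examined in the 5 lines as a check of the label. No gene annotation of the files' build (hg19) was used, so every gene name here is background knowledge of where the gene lies on hg19, and H3K27ac in a window can belong to a neighbouring gene. These windows were chosen after values had been seen. Lengths are scaled to the same total covered length in every list, and those of the 8 other lines are scaled likewise. At chromosome 12, 52850001 to 52950000, where the keratin genes KRT6A and KRT5 of basal and squamous cells lie, the covered length was 1.22 kb in HCC2450 and none in Calu-1, HCC2279, SQ-1 or EBC-1. The 8 other lines had 0 to 40.8 kb there, with a median of 14.99 kb, and LK2 and NCI-H2887 had none. At chromosome 3, 181400001 to 181450000, the place of SOX2, the Calu-1 group had 0 kb (Calu-1), 2.31 kb (HCC2279) and 0.909 kb (HCC2450), and the SQ-1 group 0 kb (SQ-1) and 3.11 kb (EBC-1). Each of the 8 other lines was higher (11.1 to 47.7 kb). At the p63 gene TP63 on chromosome 3, 189300001 to 189650000, the values were 7.65, 21.2 and 9.51 kb in Calu-1, HCC2279 and HCC2450, against 19.6 and 25.1 kb in SQ-1 and EBC-1. The groups overlapped, and KNS62, HCC95, HARA, LC-1/SQSF and HCC2814 had 55.6 to 132 kb. LK2 (0.436 kb), NCI-H520 (0 kb) and NCI-H2887 (10.3 kb) lay below SQ-1 and EBC-1. The 5 lines thus bear the squamous label with little H3K27ac at the keratin and SOX2 windows, in both groups, and low values at the keratin window and at TP63 were shared by some of the 8 other lines.

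The lists of the 5 lines were merged into 70447 regions wherever peaks overlapped by at least 1 bp. Regions held by 1 line numbered 34826 (49.4%), and 11894 (16.9%) were held by all 5 lines. Found in all 3 lines of the Calu-1 group and in neither SQ-1 nor EBC-1 were 1677 regions, 2.38% of all regions. Found in SQ-1 and EBC-1 and in no line of the Calu-1 group were 1899 regions, 2.7% of all regions. The rule asks for 3 lines on one side and 2 on the other, so the counts of the classes cannot be compared with each other. With every peak cut to 1000 bp at its centre the counts were 1706 and 2198. With each list reduced to its top peaks up to 50.2 Mb, the covered length of SQ-1, they were 212 and 4162. That setting left the Calu-1 group lines 15853 to 17729 peaks, against 40325 in SQ-1 and 34731 in EBC-1.

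Regions of the Calu-1 group alone were longer, with a median of 2461 bp against 1568 bp for regions of the SQ-1 group alone. Regions of all 5 lines had a median of 3182 bp. The peaks in group-only regions stood near the middle of their own lists by the authors' peak score, a value used here only to rank peaks within a list. Their median rank was at the 45.9th percentile in Calu-1, 41.9th in HCC2279 and 48.0th in HCC2450, against the 45.8th in SQ-1 and 46.0th in EBC-1. Peaks in regions of all 5 lines ranked higher, at the 71.4th, 74.9th and 72.2nd percentile in the Calu-1 group and the 58.9th and 65.6th in the SQ-1 group. Distance was measured to the 7576 regions that all 13 lines shared once their lists were merged. A group-only region can fall inside such a region only where a peak of another line joins it to peaks of the other group. The nearest shared region was a median of 118 kb away for regions of the Calu-1 group alone and 81.3 kb for those of the SQ-1 group alone, against 87.1 kb for all regions. Of the regions of the Calu-1 group alone 53.8%, and of those of the SQ-1 group alone 45.4%, lay more than 100 kb away. Of all 70447 regions, 47.1% did. All regions include those of all 5 lines (median distance 0 kb) and those of 1 line, which the classes leave out by rule. The values of all regions are thus not a like base for the classes.

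Among the 10 longest regions of the Calu-1 group alone, HCC2450 covered the most in each. The longest ran from 18790478 to 18823178 on chromosome 7, inside HDAC9, which encodes a histone deacetylase. HCC2450 covered 32701 bp of it, HCC2279 1014 bp and Calu-1 574 bp, and none of the 8 other lines held a peak there. At chromosome 3, 148645145 to 148665445, HCC2450 covered 20301 bp, Calu-1 3370 bp and HCC2279 3110 bp, and HARA and LC-1/SQSF also held the region. At chromosome 15, 80779246 to 80790505, the coverage was more even, with 11254 bp in HCC2450, 7869 bp in HCC2279 and 4490 bp in Calu-1. This region lies inside ARNT2, which encodes a transcription factor of the basic helix-loop-helix family, and no other line held it. Choosing regions by merged length favours those in which 1 line has a long peak, and presence in all 3 lines was required by the rule.

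The 10 longest regions of the SQ-1 group alone were shorter, from 6256 to 9790 bp, and were shared more evenly. The longest, at chromosome 18, 19247087 to 19256876, was covered by 7998 bp in SQ-1 and 9790 bp in EBC-1. At chromosome 16, 57652512 to 57659082, which holds the start of ADGRG1 (an adhesion receptor, also called GPR56), SQ-1 covered 4112 bp and EBC-1 6571 bp. This region was also held by 7 of the 8 other lines, all but NCI-H2887. At chromosome 7, 983957 to 991493, in ADAP1, which encodes a regulator of Arf GTPases, SQ-1 covered 7200 bp and EBC-1 6899 bp. HARA, HCC2814, HCC95, KNS62 and LK2 held it too. Several of these regions were thus missing in the Calu-1 group rather than private to SQ-1 and EBC-1.

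The genome was then divided into bins of 50 kb, and covered lengths were scaled so that all lists had the same total. A bin was called where the values of the groups did not overlap and the group means of log2(scaled length + 1000 bp) differed by at least 1, and bins whose mean stayed under 2000 bp were not tested. Of 10697 bins, 808 (7.55%) were higher and 854 (7.98%) lower in the Calu-1 group, and the median difference over all bins was -0.05. Without the size threshold, 1353 bins (12.6%) were higher and 1998 (18.7%) lower without overlap. These shares are all called bins and carry no test, because the same lists chose the groups. Without scaling, 1572 bins were higher and 351 lower, so that 81.7% of called bins were higher against 48.6% with scaling. At the threshold, the bin at chromosome 1, 64650001, was just inside with 1.83, 1.92 and 7.86 kb in Calu-1, HCC2279 and HCC2450 against 1.46 and 0.777 kb in SQ-1 and EBC-1. The bin at chromosome 5, 114850001, was just outside with 3.54, 3.35 and 6.16 kb against 1.67 and 1.55 kb. Among lower bins, chromosome X, 7000001, was just inside with 2.64, 3.65 and 0 kb against 3.99 and 4.29 kb, and chromosome 10, 93650001, just outside with 1.59, 3.95 and 3.28 kb against 8.79 and 4.89 kb.

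Of the 10 named higher bins, SPARC (rank 6) and COL5A1 (rank 9) are described first, with COL1A2 (rank 40) beside them. They are put first for their genes, not for their rank. Other mesenchymal genes were not counted, so these bins do not describe such genes as a set. The bin at chromosome 5, 151050001 to 151100000, holds the start of SPARC, which encodes a secreted matrix glycoprotein. Calu-1 had 8.37 kb, HCC2279 8.95 kb and HCC2450 11.6 kb there, against none in SQ-1 and EBC-1, a log2 difference of 3.40. Its values were the most alike within the Calu-1 group among the 10 named higher bins (SD 1.72 kb, n = 3 lines). At chromosome 9, 137500001 to 137550000, where COL5A1 (a chain of type V collagen) begins, the values were 7.45, 5.05 and 16.1 kb in Calu-1, HCC2279 and HCC2450, against none in SQ-1 and EBC-1. The 8 other lines reached at most 7.83 kb at SPARC, in NCI-H2887, and 1.95 kb at COL5A1, in HCC95. A bin chosen after its values were seen, at chromosome 7, 94000001 to 94050000, holds the start of COL1A2 (a chain of type I collagen). It had 29.1 kb in HCC2450, 3.52 kb in Calu-1 and 1.70 kb in HCC2279, against none in SQ-1 and EBC-1. All 3 bins were free of peaks in both SQ-1 and EBC-1 and covered in every line of the Calu-1 group, with COL1A2 covered mainly in HCC2450. This follows largely from the rule and the ranking that picked them. It holds for these bins only. Over the run of 5 higher bins that ends with the COL5A1 bin, EBC-1 had 1.44 kb.

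The most raised bin lay at chromosome 15, 80750001 to 80800000, in ARNT2, with 8.11 kb in Calu-1, 14.1 kb in HCC2279 and 25.04 kb in HCC2450 against none in SQ-1 and EBC-1 (log2 difference 3.93). Its highest value in the 8 other lines was 1.56 kb, and 6 of them had none. At chromosome 10, 14400001 to 14450000, the Calu-1 group had 12.7, 7.53 and 27.7 kb (Calu-1, HCC2279, HCC2450), against 1.20 kb in SQ-1 and none in EBC-1. None of the 8 other lines had covered length in that bin. At chromosome 4, 7850001 to 7900000, in AFAP1 (an actin filament-associated protein), HCC2450 was the lowest of its group, with 2.61 kb beside 23.96 kb in Calu-1 and 14.5 kb in HCC2279, against none in SQ-1 and EBC-1. The 10 named higher bins had log2 differences of 3.24 to 3.93, whose size follows the pseudocount because most SQ-1 group values were 0. With a pseudocount of 200 bp they were 4.73 to 6.17 and with 5000 bp 1.47 to 1.97. HCC2450 was the highest line in 347 of the 808 higher bins (42.9%), Calu-1 in 253 and HCC2279 in 208.

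**Figure D3:**
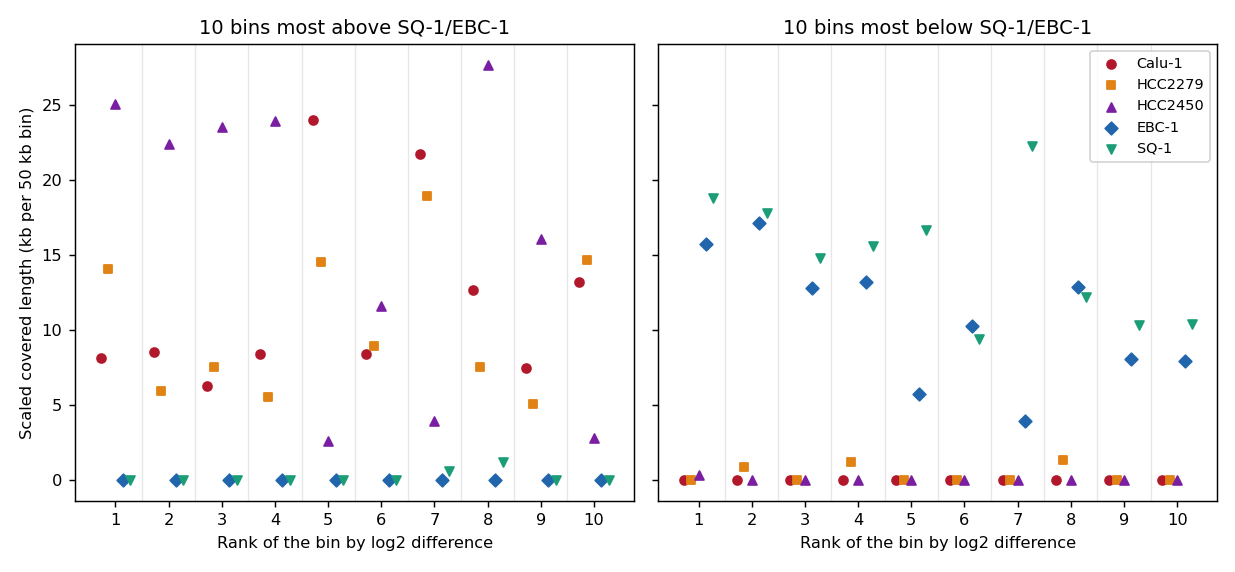
Scaled covered length in kb per 50 kb bin for the 5 lines, in the 10 bins with the largest log2 difference in either direction, ordered by rank; each point is 1 line (1 library). In the left panel SQ-1 and EBC-1 have at most 1.20 kb, and in the right panel the Calu-1 group lines have at most 1.35 kb.

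Of the lower bins, GRHL2 (rank 8 of the 10 named) and CDH1 (rank 15) are described first, again for their genes. Other epithelial genes were not counted, so these bins do not describe such genes as a set. At chromosome 8, 102500001 to 102550000, where GRHL2 begins, a transcription factor that maintains epithelial gene activity, Calu-1 and HCC2450 had none and HCC2279 1.35 kb, against 12.2 kb in SQ-1 and 12.9 kb in EBC-1. The log2 difference was -3.35. A bin chosen after its values were seen, at chromosome 16, 68750001 to 68800000, holds the start of CDH1, the gene of E-cadherin. It had 0.286, 2.90 and 3.16 kb in Calu-1, HCC2279 and HCC2450, against 23.95 and 23.79 kb in SQ-1 and EBC-1, a log2 difference of -3.18. The groups were far apart in both bins, as the rule that called them asks, and the Calu-1 group stood apart from most other lines too. At GRHL2, HARA, HCC2814, HCC95, KNS62, LC-1/SQSF and LK2 had 11.9 to 18.4 kb, NCI-H2887 had 1.63 kb and NCI-H520 none. At CDH1 the 8 other lines ran from 0.449 to 12.8 kb with a median of 10.6 kb, all below SQ-1 and EBC-1.

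The bin most below the SQ-1 group lay at chromosome 7, 950001 to 1000000, in ADAP1, with 0.351 kb in HCC2450 and none in Calu-1 or HCC2279, against 18.8 kb in SQ-1 and 15.7 kb in EBC-1 (log2 difference -4.04). At chromosome 6, 39150001 to 39200000, which holds KCNK5 (a potassium channel), HCC2279 had 0.855 kb and Calu-1 and HCC2450 none, against 17.8 kb in SQ-1 and 17.1 kb in EBC-1. At chromosome 6, 106800001 to 106850000, none of the Calu-1 group had covered length, against 14.8 kb in SQ-1 and 12.8 kb in EBC-1. SQ-1 and EBC-1 were close to each other in each of these bins. In the bin at chromosome 12, 12000001 to 12050000, in ETV6 (an ETS family transcription factor), HCC2279 had 1.22 kb and Calu-1 and HCC2450 none, against 15.6 kb in SQ-1 and 13.2 kb in EBC-1. NCI-H2887 had 13.7 kb there. The 10 named lower bins had log2 differences of -3.33 to -4.04, and their size follows the pseudocount, since most Calu-1 group values were 0 (-5.01 to -6.12 with 200 bp and -1.50 to -2.12 with 5000 bp).

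Promoter sequences are shown for SPARC and KCNK5, as examples of a bin that was higher and a bin that was lower in the Calu-1 group, with lines of a group close to each other. They are RefSeq sequences on GRCh38.p14, read by gene symbol, from 250 bases before to 50 after the start of the gene, 5′ to 3′ on the minus strand, at chr5:151686866-151687165 for SPARC and chr6:39229426-39229725 for KCNK5, with CG dinucleotides in capitals. Whether a peak of the hg19 lists lies on these bases was not examined, since the builds differ.
SPARC: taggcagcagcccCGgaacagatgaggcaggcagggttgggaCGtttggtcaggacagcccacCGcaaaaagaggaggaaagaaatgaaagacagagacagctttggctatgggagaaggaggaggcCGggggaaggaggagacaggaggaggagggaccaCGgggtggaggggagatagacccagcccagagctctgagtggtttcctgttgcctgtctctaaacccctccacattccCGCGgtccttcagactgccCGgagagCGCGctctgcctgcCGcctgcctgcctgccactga
KCNK5: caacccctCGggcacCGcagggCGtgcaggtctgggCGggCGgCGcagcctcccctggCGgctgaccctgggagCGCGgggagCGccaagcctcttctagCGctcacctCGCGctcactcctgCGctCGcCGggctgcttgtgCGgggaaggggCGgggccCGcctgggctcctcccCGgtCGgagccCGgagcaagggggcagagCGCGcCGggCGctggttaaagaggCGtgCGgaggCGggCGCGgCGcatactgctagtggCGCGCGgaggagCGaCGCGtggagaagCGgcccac
The SPARC promoter holds 11 CG dinucleotides and the KCNK5 promoter 39. The median over the 35116 promoters of the table is 14, and 96.0% hold at least 1. As many as in KCNK5 were found in 8.71% of promoters and as many as in SPARC in 54.7%.

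Called bins formed stretches at some loci, which were looked up after the values had been seen. Of the 808 higher bins, 211 adjoined another higher bin, as did 211 of the 854 lower bins. Most runs held 1 bin only (597 of 690 higher and 643 of 737 lower runs). How many bins would adjoin without a link between neighbours was not tested. Runs of 5 higher bins lay at chromosome 9, 137300001 to 137550000, which reaches up to the start of COL5A1, and at chromosome 11, 35100001 to 35350000, which holds CD44, the receptor of hyaluronan. The CD44 stretch had 34.7 kb in Calu-1, 42.6 kb in HCC2279 and 20.8 kb in HCC2450, against 10.1 kb in SQ-1 and 2.96 kb in EBC-1. Of the other lines, NCI-H520, LC-1/SQSF, HCC95 and LK2 had 30.7 to 48.1 kb, HARA none. KNS62 and HCC2814 lay between (22.9 and 27.3 kb), and NCI-H2887 had 9.67 kb, so low values were not particular to SQ-1 and EBC-1. A run of 4 bins at chromosome 1, 110300001 to 110500000, which holds CSF1, the growth factor of macrophages, had 48.7, 39.9 and 24.7 kb in Calu-1, HCC2279 and HCC2450, against 13.7 kb in SQ-1 and 2.16 kb in EBC-1. The 8 other lines had at most 6.72 kb.

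The longest lower run had 6 bins, at chromosome 6, 47000001 to 47300000, which holds TNFRSF21, a receptor of the tumour necrosis factor receptor family. Calu-1 had 17.9 kb, HCC2279 15.8 kb and HCC2450 24.5 kb, against 120.3 kb in SQ-1 and 49.1 kb in EBC-1. SQ-1 was far above every other line, and KNS62 followed EBC-1 with 42.9 kb. A lower run of 4 bins lay at chromosome 7, 20200001 to 20400000, at the start of MACC1, which encodes a regulator of the MET receptor gene. Calu-1 had 13.2 kb, HCC2279 3.58 kb and HCC2450 1.45 kb, against 68.9 kb in SQ-1 and 31.5 kb in EBC-1. The 8 other lines ran from 5.66 to 27.5 kb, all below both SQ-1 and EBC-1. A further run of 4 bins at chromosome 3, 114250001 to 114450000, in ZBTB20 (a zinc finger transcription factor), had 8.99, 2.53 and 2.06 kb in Calu-1, HCC2279 and HCC2450, against 41.2 kb in SQ-1 and 19.8 kb in EBC-1. NCI-H2887 had 13.3 kb and HARA, HCC2814, HCC95 and LC-1/SQSF none.

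The 8 lines outside both groups played no part in the choice of regions, so H3K27ac in them could be tested. The classes still differ by rule, since one asks for 3 lines and the other for 2, and the part of this in the differences of shares below, Sox2 included, cannot be told apart from that of the groups. Regions of the Calu-1 group alone were acetylated in 28.1% ± 8.10 of cases and regions of the SQ-1 group alone in 23.04% ± 13.27 (SD, n = 8 lines). The mean difference of 5.06 percentage points was positive in 6 of 8 lines and did not pass a two-sided exact sign-flip permutation test over lines (p = 0.164, smallest possible 0.00781). Over regions of 1000 to 3000 bp only, it was 7.54 points, positive in 7 of 8 lines (exact p = 0.0703). Lengths were closer there, but regions of the Calu-1 group alone were still the longer ones (medians 2061 and 1798 bp). The difference passed the threshold over regions of the upper part of each list by score (28.2 points, exact p = 0.00781) and with KNS62 left out (7.39 points, exact p = 0.0312). The mean turned negative without HCC2279 (-8.41 points, exact p = 0.00781, past the threshold in the opposite direction) or HCC2450 (-3.35 points, exact p = 0.344) in the choice of regions.

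Single lines differed widely. NCI-H2887 held 31.9% of regions of the Calu-1 group alone but 13.1% of those of the SQ-1 group alone, against 29.6% of all regions. KNS62 held 38.0% and 49.3%, against 37.2% of all regions. HARA had 34.8% and 23.1%, LK2 16.01% and 9.08%, and NCI-H520 16.3% and 9.43%. HCC95 (31.4% and 26.5%) and HCC2814 (26.5% and 23.4%) showed smaller gaps, and LC-1/SQSF the smallest (29.8% and 30.3%). The difference in NCI-H2887 exceeded that in KNS62 in each of the 11 alternative settings, by 10.4 to 34.5 points, although the sign within either line was not fixed. It was positive in 10 of the 11 settings for NCI-H2887 and negative in 8 of 11 for KNS62. These lines were picked as the extremes of the 8 after the values were seen. The settings reuse the same lists, so the steady order is not independent support. Of the 391 regions of the SQ-1 group alone that exactly 1 of the 8 other lines held, 211 (54.0%) were in KNS62. Of the 266 such regions of the Calu-1 group alone, 77 (28.9%) were in NCI-H2887 and 62 (23.3%) in KNS62. The KNS62 list is among the larger ones (68.0 Mb) and the NCI-H2887 list has short peaks (median 530 bp), and their part in these shares was not tested.

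**Figure D4:**
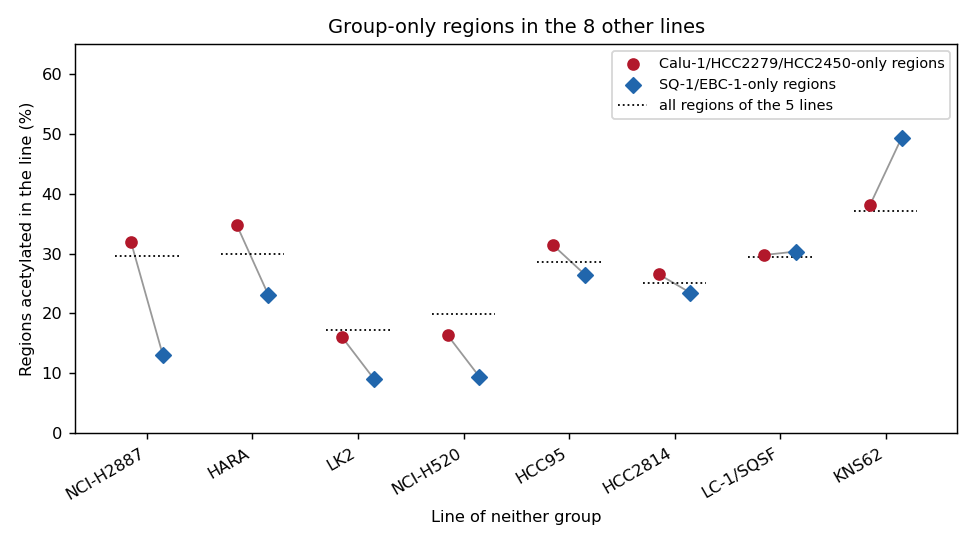
Share of regions acetylated (%, y axis) in each of the 8 lines of neither group (x axis, ordered by the difference), for regions of the Calu-1 group alone (1677), regions of the SQ-1 group alone (1899) and all 70447 regions (dotted). NCI-H2887 has the largest gap in one direction (31.9% and 13.1%) and KNS62 in the other (38.0% and 49.3%).

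None of the 8 other lines held a peak in 645 of the 1677 regions of the Calu-1 group alone (38.5%) and in 659 of the 1899 regions of the SQ-1 group alone (34.7%), against 46.6% of all regions. All 8 held 136 (8.11%) of the regions of the Calu-1 group alone and 17 (0.895%) of those of the SQ-1 group alone. Of all regions, all 8 held 13.4%. That share includes the regions of all 5 lines, of which all 8 held 64.0%. Both classes leave such regions out by rule, and also the regions held by 1 of the 5 lines, which are 49.4% of all regions. Neither 46.6% nor 13.4% is thus a like share for the classes. The 136 regions were thus acetylated in 11 of the 13 lines and missing in SQ-1 and EBC-1.

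In the 808 higher bins, where medians were 5.21, 4.48 and 5.57 kb in Calu-1, HCC2279 and HCC2450 against 0.531 and 0.655 kb in SQ-1 and EBC-1, the 8 other lines had medians of 0 to 1.46 kb. In the 854 lower bins, where medians were 2.16, 2.01 and 1.13 kb in Calu-1, HCC2279 and HCC2450 against 7.65 and 7.05 kb in SQ-1 and EBC-1, they had 0.380 to 3.31 kb, the highest in KNS62. Over all tested bins their medians were 1.98 to 3.39 kb. The other lines lay nearer to the low group in both kinds of bin. The rule calls bins in which 1 group is high, so lines outside the choice tend to lie there anyway. Nothing is concluded from it.

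Sox2 binding had been mapped in 5 of the other lines, by a factor and in lines that the choice of groups did not use. Sox2 peaks of KNS62 lay in 6.32% (95% Wilson interval 5.25 to 7.59) of regions of the Calu-1 group alone and in 15.7% (14.1 to 17.4) of those of the SQ-1 group alone, against 7.45% of all regions. Sox2 peaks of HCC95 lay in 7.63% and 12.4% (all regions 7.51%), those of HCC2814 in 4.71% and 8.79% (all regions 4.83%), and those of LK2 in 2.86% and 4.37% (all regions 2.78%). NCI-H520 went the other way, with 4.29% and 3.32% (all regions 4.68%). The mean difference was -3.76 percentage points, negative in 4 of 5 lines (two-sided exact sign-flip permutation p = 0.125, with 0.0625 the smallest that 5 lines allow). Over regions of 1000 to 3000 bp it was -4.73 points, negative in 4 of 5 lines (exact p = 0.125). Without EBC-1 in the choice of regions it turned positive (2.71 points, exact p = 0.0625). Any of the 5 Sox2 lists had a peak in 282 of 1677 regions of the Calu-1 group alone (16.8%) and in 511 of 1899 of the SQ-1 group alone (26.9%). The share of all regions was 16.6%, near that of the Calu-1 group class. All regions include those of all 5 lines, with a share of 32.0%, and those held by 1 line. The classes leave both out by rule, so 16.6% is not a like share for them. Peaks of HCC95, KNS62 and HCC2814 met in 25 regions of the Calu-1 group alone (1.49%) and 61 of the SQ-1 group alone (3.21%), against 1.66% of all regions. The intervals cover counting error only.

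**Figure D5:**
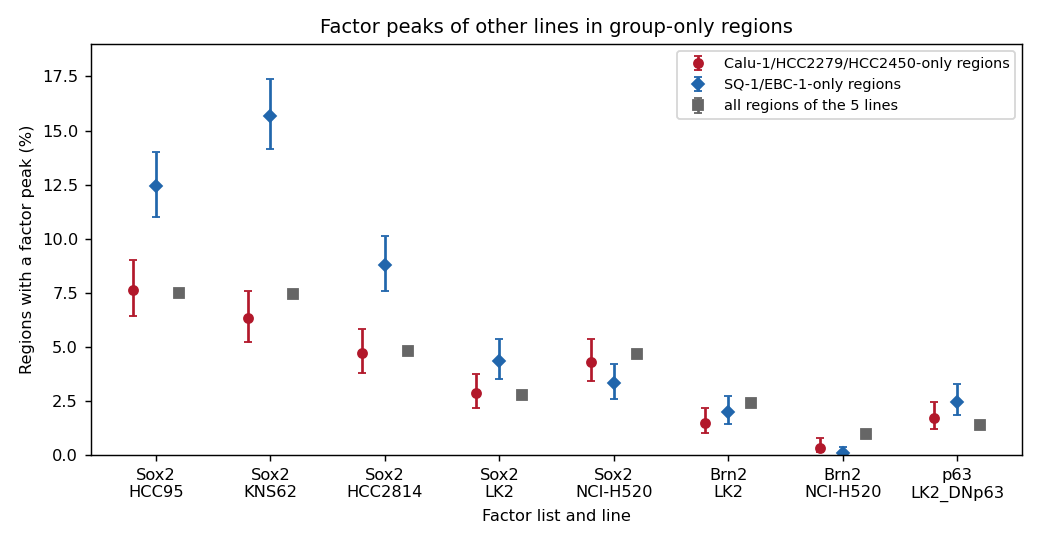
Share of regions with a factor peak (%, y axis) for each factor list (x axis), in regions of the Calu-1 group alone, regions of the SQ-1 group alone and all regions of the 5 lines, with 95% Wilson intervals. Sox2 peaks of HCC95, KNS62 and HCC2814 are more frequent in regions of the SQ-1 group alone (12.4%, 15.7% and 8.79%) than in those of the Calu-1 group alone (7.63%, 6.32% and 4.71%).

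Brn2 and p63 peaks were few. Brn2 peaks of LK2 lay in 25 regions of the Calu-1 group alone (1.49%, interval 1.01 to 2.19) and 38 of the SQ-1 group alone (2.001%, 1.46 to 2.73), against 2.42% of all regions. Brn2 peaks of NCI-H520 lay in 6 (0.358%, 0.164 to 0.778) and 2 (0.105%, 0.0289 to 0.383), against 0.972% of all regions. The p63 peaks are those of LK2_DNp63, an LK2 derivative named for DNp63, a form of p63. No unmodified line has a p63 list, and LK2 itself had 0.436 kb of H3K27ac at the TP63 window. These p63 peaks lay in 29 (1.73%, 1.21 to 2.47) and 47 (2.47%, 1.87 to 3.28), against 1.38% of all regions. With 1 or 2 lists a factor these shares were not tested, and the intervals of both classes overlap for each of these 3 lists.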

How the data were processed

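H3K27ac, Sox2, Brn2 and p63 were mapped by ChIP-seq in established lung squamous cell carcinoma lines. The deposited lists give chromosome, start, end, a peak name beginning with MACS and the authors' score per peak, whose scaling is not given in the sources used here. Bowtie2 and the build hg19, also called GRCh37, are named per the submitters' processing notes. Caller version, threshold and use of inputs are not given there. No read counts are held, so depth is unknown. The 16 inputs and 4 lists of LK2 derivatives were not used. Peaks on chromosomes 1 to 22 and X were kept, which left out 530 of 194095 peaks of the 5 lists. Coordinates are 1-based on hg19.

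Groups were given by the likeness of their H3K27ac lists, so region and bin counts carry no test. Two-sided exact sign-flip permutation tests were run over lines outside the groups (Python 3.11.15, numpy 2.4.6, scipy 1.17.1). LK2 and NCI-H520 entered as means of 2 libraries. Libraries are not stated to come from separate cultures, and the spread behind the p-values may be technical. Members and lists were chosen with earlier results of these data known. Regions named are the 10 longest of each class, bins named the 10 with the largest difference in each direction; exceptions are marked. Gene names are background knowledge of hg19, not looked up in an annotation, so counts over the planned gene lists were not run. Region and bin calling was tested on simulated lists. Alternatives were leaving out lines, list cuts by score, overlap, scaling, pseudocount, filter, bin size and region length.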

Additional observations from a re-analysis of the deposited data

How the results depend on the processing

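Depth is unknown and limits every list. With a line left out, regions of the Calu-1 group alone ran from 3005 to 3874 (main 1677) and of the SQ-1 group alone from 2093 to 8797 (main 1899), and bins from 859 to 1581 higher (main 808) and 863 to 1465 lower (main 854). Fewer lines must then meet the rule, which raises counts by construction, as for Calu-1 against EBC-1 alone (18915 and 12548 regions, 1699 and 1581 bins). With the peaks of each list above its median score the regions were 1080 and 1242, and with lists cut to equal covered length 212 and 4162, a setting added after seeing the data. Of the main regions, 204 of 1677 and 1803 of 1899 overlapped the same class under it. Bins higher and lower were 1572 and 351 without scaling (median log2 difference of all bins 0.38, against -0.05 with scaling), 151 and 242 with a pseudocount of 5000 bp, 1583 and 1588 without the filter, and 255 and 293 with peaks cut to 1000 bp, also added after seeing the data. The cause was not tested. Of called bins, 48.6% were higher, against 38.4% with the pseudocount of 5000 bp and 81.7% without scaling.

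The difference in H3K27ac share in the 8 other lines (5.06 points) ran from -8.41 to 36.0 points with a line left out (exact permutation p 0.00781 to 0.344). It passed the threshold with the peaks above the median score (28.2 points, exact permutation p = 0.00781), without SQ-1 (13.9) or EBC-1 (36.0) in the choice of regions and without KNS62 among the other lines (7.39 points, exact permutation p = 0.0312). It turned negative and passed without HCC2279 (-8.41) and turned negative without HCC2450 (-3.35). The difference for Sox2 (-3.76 points) ran from -5.46 to 2.71 points with a line left out (exact permutation p 0.0625 to 0.25) and turned positive only without EBC-1 (2.71). No named bin changed direction in any of its 14 alternatives. The bins were chosen for large differences in these same lists, with most values of the low group at 0, so their direction could hardly change. The size of the differences did change, and follows the pseudocount as given above. No paired analysis was possible because the lines of the groups share no replicate number in the labels.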

Other observations

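The shares of group-only regions varied over the chromosomes. Over all chromosomes they were 2.38% for the Calu-1 group alone and 2.7% for the SQ-1 group alone. The chromosomes named first are those where the shares of the classes differed most by ratio, and some of their counts are small. On chromosome 21, 34 of 886 regions were of the Calu-1 group alone (3.84%) and 14 of the SQ-1 group alone (1.58%), and on chromosome 22, 47 (3.54%) and 20 (1.51%) of 1327. The order was the opposite on chromosome 18, with 24 (1.59%) and 61 (4.04%) of 1511, on chromosome 8, with 39 (1.28%) and 82 (2.68%) of 3057, and on chromosome 7, with 65 (1.69%) and 133 (3.45%) of 3851. Other chromosomes had shares close to each other, such as chromosome 2 (2.59% and 2.69%) and chromosome 20 (3.03% and 3.14%). On chromosome X both classes had 57 of 2133 regions. Copy number was not measured in these files, and the shares carry no test.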
